A study of Mus musculus with 2 samples.

Results

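Janus kinases and STAT factors form a short signalling route from cytokine receptors to genes, and 9 genes of this route were followed here in mouse spleen. They are the kinases Jak1, Jak2 and Jak3 and the transcription factors Stat2, Stat3, Stat4, Stat5a, Stat5b and Stat6. They were chosen by name, found by matching the Ensembl identifiers of the deposited tables to mouse symbols, and make up 9 of 43346 genes with such an identifier. Other genes of the route outside the lists named below were not analysed here. The material was spleen tissue of 1 male C57BL/6J mouse aged 10 weeks, with no treatment, transgene or second group in the labels. Its polyadenylated RNA was read in 2 libraries that the labels call technical replicates, numbered 1 and 2, of the same biological replicate. Library 2 was made in 2015, after the publication of 2014 that the labels cite. The tables carried 27528810 expected counts on genes in replicate 1 and 3806385 in replicate 2. Both libraries come from 1 animal, so differences between them measure how the libraries differ and hold no information on differences between mice.

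A cytokine receptor has no kinase activity of its own. Janus kinases are bound to the receptor's inner part, phosphorylate it and one another when a cytokine brings the chains together, and then phosphorylate STAT proteins that dock there. Phosphorylated STATs pair through their SH2 domains, enter the nucleus and bind DNA. In the spleen the route serves the survival and differentiation of lymphocytes, the response to interferons and the formation of red cells.

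The labelled tissue was checked against marker genes. All 5 B cell markers reached 1 TPM (a level corrected for transcript length and library size, which can be compared between genes) in both libraries, with sums of 3008 and 1168 TPM, as did all 4 red pulp macrophage markers, with sums of 754 and 197 TPM. The liver markers Alb and Apoa1 summed to 0.06 TPM and 0 TPM, and 3 pancreas markers to 21.99 and 4.22 TPM. The 2 libraries nevertheless stood apart. Summed erythroid markers were at 35469 TPM in replicate 1 and 213382 TPM in replicate 2. Summed T cell markers were at 495 and 36.1 TPM, with 5 and 4 of 5 genes at 1 TPM and Trac, a T cell receptor chain, at 0 in replicate 2. NK cell markers summed to 112 and 15.1 TPM, with 4 and 2 of 4 genes at 1 TPM. Neutrophil markers summed to 899 and 112 TPM, with 3 and 2 of 3 genes at 1 TPM. The part of these marker differences in the values below was not tested. In bulk tissue, fewer cells of a type and less RNA per cell cannot be told apart. Here neither can be told apart from a difference between the libraries themselves.

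All 3 kinases and all 6 STATs were detected in both libraries, and all 9 passed the filter on low values (a mean of at least 1 TPM and at least 50 counts over both libraries). Every one had a lower TPM in replicate 2, as did 86.9% of the 12467 genes tested. Together the 9 genes reached 669 TPM in replicate 1 against 100.4 TPM in replicate 2. The kinases accounted for most of that gap: their sum was 352 TPM against 17.6 TPM, 20.01-fold lower, and the STAT sum was 318 against 82.8 TPM, 3.83-fold lower. The kinases therefore stood at 1.11 times the STAT level in replicate 1 and at 0.212 times in replicate 2. Stat4 held 30.6% of the STAT TPM in replicate 2 from 4.96% of the STAT counts, mostly on a short transcript described below. The STAT sum of replicate 2 and the ratios that use it include this value.

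**Figure D1:**
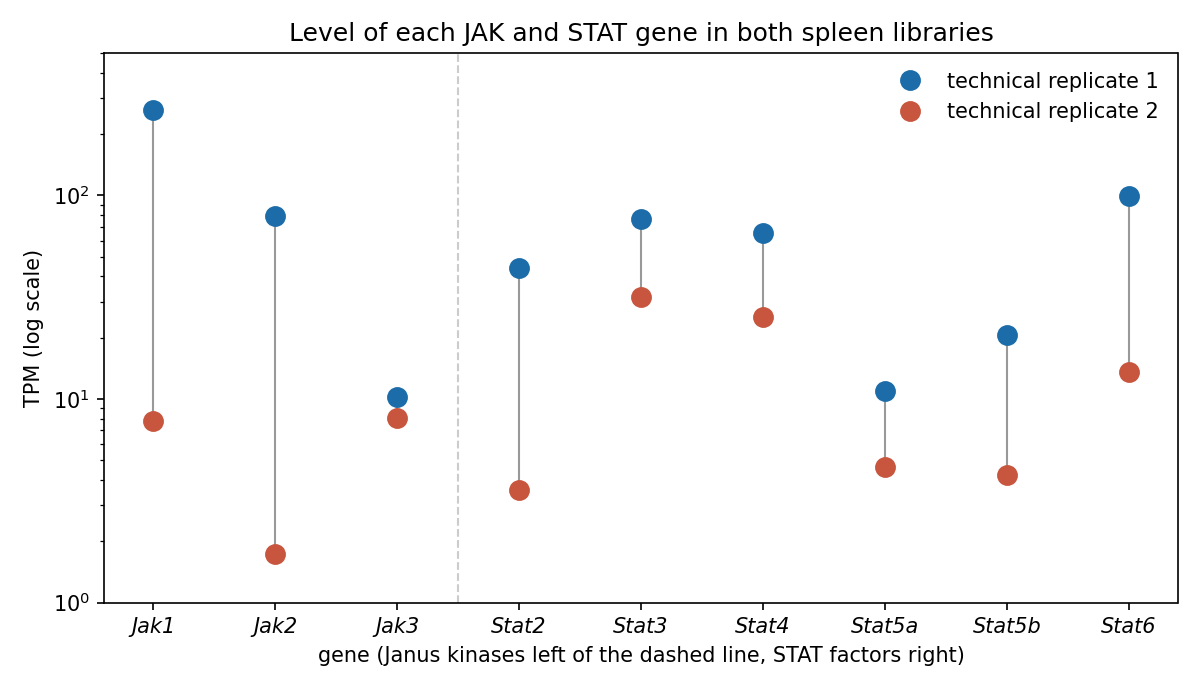
TPM of each gene (log axis) in technical replicate 1 (blue) and technical replicate 2 (red), with a line joining the 2 values of a gene. The drop of Jak1 from 262 to 7.78 TPM and of Jak2 from 79.5 to 1.73 TPM stands beside 10.3 and 8.06 TPM for Jak3.

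Jak1, the kinase shared by the gamma chain, gp130 and interferon receptors, was the highest of the 9 genes in replicate 1 with 262 TPM from 21872 counts. In replicate 2 it held 7.78 TPM from 218 counts and ranked 5 of 9. Jak2, the kinase of the erythropoietin, thrombopoietin and growth hormone receptors, had 79.5 TPM from 7334 counts and 1.73 TPM from 49 counts. It was the lowest of the 9 genes in replicate 2, where its count has an exact Poisson 95% interval of 36.3 to 64.8. Jak3, the kinase that binds the common gamma chain and is largely restricted to blood cells, had 10.3 TPM from 630 counts and 8.06 TPM from 157 counts. Of the 9 genes it was the lowest in replicate 1, and it was the highest kinase in replicate 2. Jak1 thus made up 74.5% of the kinase TPM in replicate 1 and 44.3% in replicate 2, Jak2 22.6% and 9.85%, and Jak3 2.92% and 45.9%.

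Ratios between 2 genes within a library do not depend on a single scaling factor per library, but they do move with the GC content of the genes. Jak1 had 34.7 counts per Jak3 count in replicate 1 and 1.39 in replicate 2, a 24.99-fold difference (exact 95% interval 19.9 to 31.3). Jak2 had 11.6 and 0.312 counts per Jak3 count, a 37.3-fold difference (26.6 to 53.0). Jak1 and Jak2 stayed closer to each other, with 2.98 and 4.45 Jak1 counts per Jak2 count, a ratio of 0.670 (0.481 to 0.919). The transcripts of Jak3 hold 60.5% GC, against 47.7% for Jak1 and 44.2% for Jak2. With the trend of all tested genes with GC content removed, which was chosen after the data were seen, the differences were 1.87-fold (1.49 to 2.35) for Jak1 per Jak3 and 2.00-fold (1.42 to 2.84) for Jak2 per Jak3, and 0.939 (0.673 to 1.29) for Jak1 per Jak2. These and all other intervals cover counting error only.

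Among the STATs, Stat6, which carries the IL-4 and IL-13 signal, was the highest in replicate 1 with 99.6 TPM from 5947 counts. Its replicate 2 value was 13.6 TPM from 290 counts. Stat3, the factor of the IL-6 and IL-10 receptors, had 76.7 TPM from 4361 counts and 31.5 TPM from 858 counts, and in replicate 2 it was the highest of the 9 genes. Stat4, the factor of the IL-12 receptor, followed with 65.5 TPM from 2734.5 counts and 25.3 TPM from 76 counts. Stat2, which joins Irf9 in the complex activated by type I interferon, had 44.2 TPM from 3555 counts and 3.56 TPM from 89 counts.

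The paralogues Stat5a and Stat5b, which act downstream of IL-2, IL-7, prolactin and erythropoietin, were the lowest STATs in replicate 1. Stat5b had 20.5 TPM from 1923 counts and 4.22 TPM from 122 counts. Stat5a had 10.97 TPM from 716 counts and 4.62 TPM from 96 counts. Stat5b was therefore 1.87 times as high as Stat5a in replicate 1 and 0.913 times in replicate 2. By counts the ratio was 2.69 and 1.27, a 2.11-fold difference (exact 95% interval 1.58 to 2.82), and 1.44-fold (1.07 to 1.92) with the GC trend removed.

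The order of the 9 genes differed between the libraries. From high to low it was Jak1, Stat6, Jak2, Stat3, Stat4, Stat2, Stat5b, Stat5a and Jak3 in replicate 1. In replicate 2 it was Stat3, Stat4, Stat6, Jak3, Jak1, Stat5a, Stat5b, Stat2 and Jak2. Of 36 pairs of genes, 18 stood in the same order in both libraries. For 8 pairs the ranges over the 2 libraries did not overlap: Stat3 and Stat4 each lay above Jak3, Stat5a and Stat5b, and Stat6 lay above Jak3 and Stat5a. Every other pair overlapped, including all neighbours in either order except Stat6 and Jak3 in replicate 2. The separate ranges of Stat4 rest on its replicate 2 TPM, which hangs on a short transcript described below. Counting coding transcripts alone, Stat4 had 0.47 TPM in replicate 2. Within replicate 1, the deposited TPM bounds of Jak2 (74.2 to 77.7) lay inside those of Stat3 (67.9 to 82.8), and the bounds of Stat5a (10.0 to 12.2) overlapped those of Jak3 (8.61 to 10.9). In replicate 2, Jak1 (7.37 to 11.7) and Jak3 (6.20 to 8.62) overlapped, as did Stat5a (3.967 to 7.497) and Stat5b (3.23 to 4.89). These bounds surround the posterior mean TPM (75.9 for Jak2 in replicate 1), not the TPM used for the order (79.5). In replicate 1 the TPM of Jak1, Jak2, Stat2 and Stat6 lay above the upper bound of the gene. The sources used here do not give the level of these bounds.

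To compare libraries of such different depth, counts were scaled with TMM (edgeR's trimmed mean of M values), and a gene was called higher or lower in replicate 2 when the exact 95% interval of its count ratio lay wholly beyond 1.5-fold. Of the 9 genes, 3 were called higher, where 28.0% of all tested genes were. These were Jak3 with a log2 ratio of 2.11 (1.85 to 2.37), Stat3 with 1.77 (1.66 to 1.88) and Stat5a with 1.22 (0.90 to 1.53). Another 4 were called lower, where 32.6% of tested genes were: Jak2 with -3.11 (-3.55 to -2.70), Jak1 with -2.53 (-2.73 to -2.34), Stat2 with -1.20 (-1.52 to -0.90) and Stat4 with -1.05 (-1.40 to -0.72). Stat5b, at 0.14 (-0.14 to 0.40), and Stat6, at -0.24 (-0.42 to -0.07), were not called. The median of the 9 genes was -0.24 and that of all tested genes -0.27. Against the quartiles of all tested genes, -1.66 and 1.22, Jak1 and Jak2 lay below, Jak3, Stat3 and Stat5a above, and the other 4 between. A single library per arm allows neither a p-value nor a check against replicates.

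Scaling decided the direction of several genes. With DESeq2 size factors 3 were called higher and 4 lower, where 29.5% and 30.5% of tested genes were. With the total count 1 was called higher and 6 lower, where 14.6% and 58.5% were. TMM lies 1.26 log2 units above the total count. On the total count Jak3 was still called higher at 0.85 (0.59 to 1.10), Stat3 at 0.51 and Stat5a at -0.044 were not called, and Stat5b at -1.12 and Stat6 at -1.50 were called lower. TPM, where a library's highly abundant transcripts take room from all others, was lower in replicate 2 for Jak3, Stat3 and Stat5a too. Jak1, Jak2, Stat2 and Stat4 were called lower under TMM, DESeq2 size factors and total count and had a lower TPM as well. Jak3 was called higher in all 3. All 9 genes had a lower TPM, so a rule that also asks for a higher TPM could keep none. The share of all tested genes that meet such a joint rule was not computed.

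**Figure D2:**
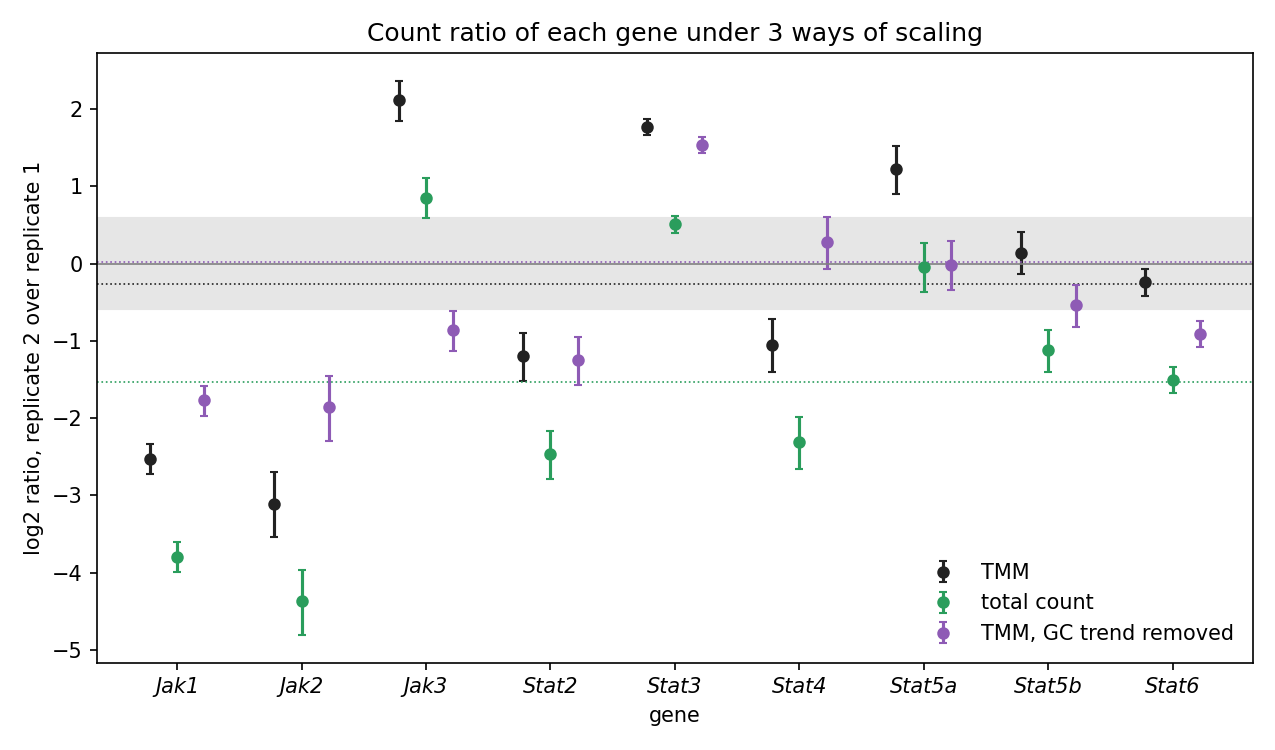
Log2 count ratio of replicate 2 over replicate 1 for each gene under 3 scalings, with exact 95% counting intervals as bars, the 1.5-fold zone in grey and the median of all tested genes under each scaling as a dotted line. Jak1 and Jak2 lie below the grey zone under every scaling drawn, and Jak3 lies above it with TMM (2.11) and total count (0.85) and below it with the GC trend removed (-0.87).

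Base composition moved with the ratios. Over all tested genes, the median log2 ratio was -1.67 in the lowest of 10 bins of GC content and 2.54 in the highest. Jak3 has the most GC-rich transcripts of the 9 genes (60.5%) and Stat4 the least (43.5%), with Jak2 at 44.2% and Jak1 at 47.7%. Within its own GC bin, Jak3 was at percentile 42.3 of the ratios, Stat5a at 46.9 and Stat4 at 56.4, near the middle. Jak1 was at percentile 15.9 and Jak2 at 13.1 of their bins, and Stat2 was at 22.1 and Stat3 at 83.4. Once the GC trend was removed, 1 of the 9 genes was called higher and 5 lower, where 27.7% and 24.6% of all tested genes were. Stat3 remained higher at 1.53 (1.43 to 1.64), and Jak1 at -1.77, Jak2 at -1.86 and Stat2 at -1.25 remained lower. Jak3 turned to -0.87 (-1.13 to -0.61) and was called lower, as was Stat6 at -0.91. Stat5a at -0.018, Stat4 at 0.27 and Stat5b at -0.54 were not called. Jak1, Jak2 and Stat2 were the genes called lower under every one of these 4 treatments of the counts.

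**Figure D3:**
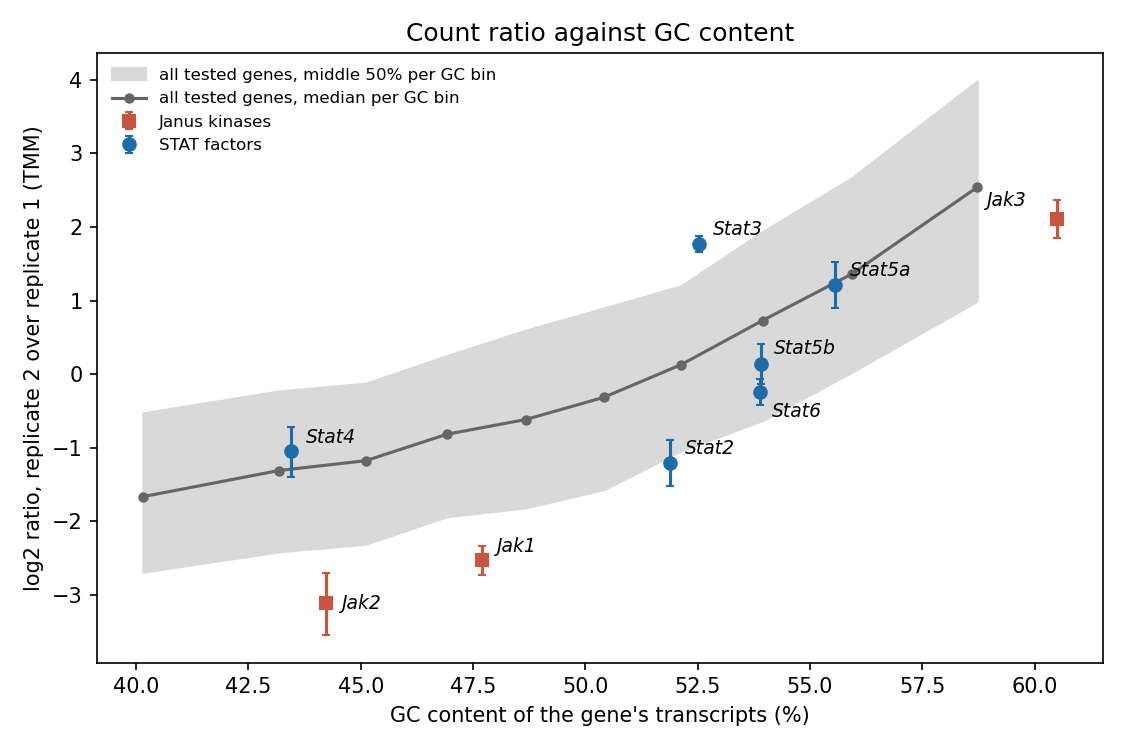
TMM-scaled log2 ratio of replicate 2 over replicate 1 against GC content, with the 3 kinases as red squares and the 6 STATs as blue circles (bars: exact 95% counting intervals), and the median (line) and middle 50% (band) of all tested genes per GC bin. Jak3 at 60.5% GC and Stat4 at 43.5% lie along the course of all genes, and Jak1, Jak2, Stat2 and Stat3 lie outside the band.

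Removing instead the trend with transcript length gave 4 genes higher and 3 lower, where 30.1% and 25.7% of tested genes were. Of the 9 genes, 8 have transcripts longer than the tested genes' median of 2394 bases. Under this treatment Stat5b, whose transcripts average 5083 bases, was called higher at 1.39, and Stat2 at -0.13 was no longer called.

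The tables divide the counts among transcripts, and that division differed between the libraries for several genes. They list 50 transcripts of the 9 genes, 24 coding and 26 non-coding, of which 16 are retained-intron transcripts that keep intron sequence. Above 0 were 41 of them in replicate 1 and 15 in replicate 2, and 16 and 3 of the retained-intron ones. The same transcript led its gene, by percent of the gene's TPM, for 4 of the 9 genes: Jak1, Stat2, Stat3 and Stat6. Over 5402 genes with at least 2 transcripts, counts in both libraries and a mean of at least 10 TPM, the leading transcript was the same for 56.0%. Jak3 and Stat5a, with means of 9.16 and 7.795 TPM, fall below that level, and both changed their leading transcript.

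**Figure D4:**
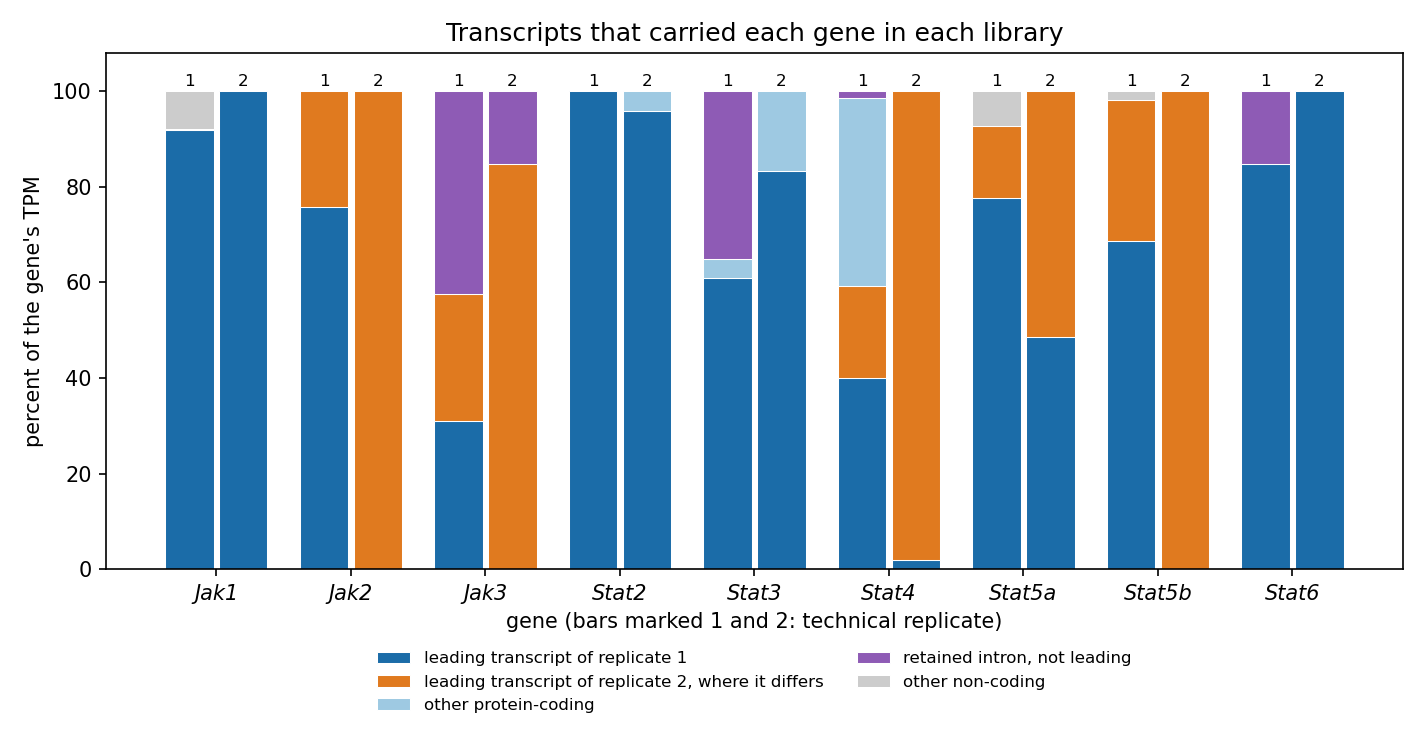
Percent of each gene's TPM by transcript in technical replicate 1 (left bar) and 2 (right bar), coloured by the leading transcript of replicate 1, the leading transcript of replicate 2 where it is another one, and the kinds of the rest. Jak2, Jak3, Stat4, Stat5a and Stat5b change their leading transcript, and for Stat4 the new one is a retained-intron transcript at 98.1%.

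Stat4 showed the widest exchange. In replicate 1 its 2 main coding transcripts, Stat4-202 and Stat4-201, held 40.0% and 39.4% of its TPM, and the retained-intron transcript Stat4-204 held 19.1%. In replicate 2 Stat4-204 held 98.1%, Stat4-202 held 1.87% and Stat4-201 was listed at 0. Of the 76 counts of the gene in replicate 2, 68.97 were assigned to Stat4-204. Stat4-204 is only 607 bases long, so the effective length of the gene, 2180 bases in replicate 1, shrank to 511 bases in replicate 2. The TPM of 25.3 that put Stat4 second in replicate 2 rests on that short length. Counting coding transcripts alone, Stat4 had 52.1 TPM in replicate 1, in place 4 of 9, and 0.47 TPM in replicate 2, in place 9.

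The letters of Stat4-204 show what such reads cover. From its first base, 219 bases lie in an intron of Stat4-201, 133 are the final coding bases of the gene and 251 are its stop codon and 3' end. The stretch across that border is given on GRCm38, chr1:52105608-52105727, plus strand, from the GENCODE M21 transcripts, with the coding part in capitals and the intron in lower case.
Stat4-204: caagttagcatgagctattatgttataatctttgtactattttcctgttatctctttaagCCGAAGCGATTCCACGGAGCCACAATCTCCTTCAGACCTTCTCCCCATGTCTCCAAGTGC
Reads that lie wholly in the capitals or beyond them fit coding and retained-intron transcripts alike, and the tables hold only the quantifier's division of them. Stat4 (chr1:51987148-52107189, plus strand) also overlaps Gm28177 on the same strand over 29929 bases, and 28.6% of the 50-base windows of Stat4-201 occur in Gm28177 too. That gene was assigned 2.68 counts in replicate 1 and 0 in replicate 2.

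The other members with retained-intron transcripts had a lower share of TPM on them in replicate 2. Over 3266 genes with a retained-intron transcript, the median share of TPM on such transcripts was 12.5% in replicate 1 and 0% in replicate 2, and the share was 0 for 61.1% of them in replicate 2. A share over 90%, as Stat4 had in replicate 2, was found for 0.888% of these genes in replicate 1 and 8.73% in replicate 2. Stat3 went from 35.2% to 0%, Stat6 from 15.3% to 0% and Jak3 from 42.4% to 15.3%. TPM weighs short transcripts more than counts do. In replicate 1 retained-intron transcripts held 239 of 4361 counts of Stat3, 160.5 of 5947 of Stat6 and 211 of 630 of Jak3. In Stat3 the largest was Stat3-213 at 18.3%, a 396-base transcript with 55.4 counts in replicate 1. By the posterior means of TPM it held 18.6% in replicate 1 and 1.83% in replicate 2, where its posterior mean count was 0. Summed over coding transcripts alone, the 9 genes held 587 TPM in replicate 1 and 74.3 TPM in replicate 2.

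Stat3 is made in a long form and in a short form that lacks part of the C-terminal transactivation domain, usually called alpha and beta. Stat3-203 led in both libraries, with 61.0% and 83.4% of the gene's TPM. Stat3-202, the short-form transcript, held 2.08% in replicate 1 and 16.6% in replicate 2. It was assigned 178.82 and 181.75 counts, nearly the same number in libraries whose depth differs 7.23-fold. Of the coding transcripts' TPM, the short form was 3.22% and 16.6%. The 2 forms differ by a choice of splice site, shown here on GRCm38 within chr11:100889511-100889915, minus strand, with capitals for the 50 bases that only the long form holds.
Stat3-203: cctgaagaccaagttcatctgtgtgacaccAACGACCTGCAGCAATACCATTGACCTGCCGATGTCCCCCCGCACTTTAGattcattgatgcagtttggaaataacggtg
Stat3-202: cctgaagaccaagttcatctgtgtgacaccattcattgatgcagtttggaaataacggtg
Without these 50 bases the reading frame shifts and ends early, and the coding part is 2166 bases in place of 2310. Stat3-202 also reaches further at its 3' end, and 1712 of its 6042 bases are outside Stat3-203, so counts assigned to it need not cross the splice site. That 3' end runs into Stat5a: Stat3 (chr11:100885098-100939540, minus strand) and Stat5a (chr11:100859351-100885169, plus strand) overlap tail to tail by 72 bases. Whether the counting used strand is not given in the sources used here, and reads in such overlaps could be credited to either gene.

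Stat5a and Stat5b lie next to each other, 8626 bases apart on chromosome 11, with Stat5b at chr11:100780731-100850724 on the minus strand. Their coding sequences are 88.8% identical (2125 of 2394 aligned positions). The longest run they share is 324 bases, and its first 100 bases, on GRCm38 from chr11:100874023-100874122 of Stat5a-202, show why short reads there cannot be told apart.
Shared by Stat5a-202 and Stat5b-201: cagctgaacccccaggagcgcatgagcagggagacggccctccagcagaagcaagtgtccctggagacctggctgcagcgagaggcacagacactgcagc
Of the 50-base windows of Stat5a-202, 16.5% also occur in Stat5b, and of those of Stat5b-201, 12.1% occur in Stat5a. At 100 bases the shares are 7.28% and 5.34%. The transcripts of Jak1, Jak2, Jak3, Stat2, Stat3 and Stat6 that led their gene in either library shared no 50-base window with another gene.

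Within Stat5a, Stat5a-202 held 77.6% in replicate 1 and 48.6% in replicate 2, and Stat5a-203 held 15.2% and 51.4%. The posterior standard deviation of their replicate 2 counts, 18.9 reads for Stat5a-202 and 18.1 for Stat5a-203, is large beside the 47.6 and 48.4 reads assigned, so the change of lead rests on less than 1 read. Stat5b exchanged transcripts that start far apart. Stat5b-202 held 68.6% in replicate 1 and was listed at 0 in replicate 2, and Stat5b-201 held 29.6% and 100%. The posterior means of replicate 2 left 13.5% on Stat5b-202 and 80.2% on Stat5b-201. Both transcripts have the same 2358 coding bases, and their first bases lie 28196 bases apart.

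The RefSeq promoter windows of GRCm38.p6, 250 bases before to 50 after a start, differ at the 2 Stat5b starts. The far upstream window, near the start of Stat5b-201, holds 50 CG pairs at 82.7% GC, and the downstream one holds 7 at 47.3%. Over 32851 windows, the median was 7 CG pairs and 52.7% GC, and 26.5% held at least 20. The first 100 bases of each are given, minus strand, with CG pairs in capitals, the upstream one from chr11:100850732-100850831 and the downstream one from chr11:100822721-100822820.
Stat5b upstream window: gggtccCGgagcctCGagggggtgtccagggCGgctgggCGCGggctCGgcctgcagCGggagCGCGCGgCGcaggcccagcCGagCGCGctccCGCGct
Stat5b downstream window: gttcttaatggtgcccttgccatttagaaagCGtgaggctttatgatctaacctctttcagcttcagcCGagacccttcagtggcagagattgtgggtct
The tables measure RNA only and hold no reading of either window. STAT dimers are known for binding TTCNNNGAA, a palindrome that reads alike on both strands. It was found in 0 of 12 windows of the 9 genes and in 8.30% of all windows, which says only that these letters are not in these 300 bases.

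Jak1 and Stat6 kept their leading transcripts. Jak1-201, its full-length coding transcript of 4906 bases, held 91.9% and 100% of the gene's TPM. The most abundant of its short non-coding transcripts, Jak1-204, held 4.01% in replicate 1 and was listed at 0 in replicate 2. By the posterior means of TPM Jak1-201 held 91.2% and 73.5%. Its posterior mean count in replicate 2 was nevertheless 218 of 218, and the remaining percent lay on transcripts with a posterior mean count of 0. Stat6-201 held 84.7% and 100%, and by the posterior means of TPM 83.9% and 88.1%. Its posterior mean count in replicate 2 was 289.75 of 290. Jak2 passed from Jak2-202 (75.7% and 0%) to Jak2-201 (24.3% and 100%). These transcripts share start and coding bases, and 83 bases of Jak2-202 are outside Jak2-201. The posterior means divided the 49 reads of replicate 2 almost evenly, 52.8% on Jak2-201 and 47.2% on Jak2-202, so at this depth the exchange was not detectable.

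Jak3 was divided over 4 transcripts in replicate 1. Jak3-203 held 30.97%, Jak3-202 26.6%, and the retained-intron transcripts Jak3-205 and Jak3-204 held 22.7% and 19.7%. In replicate 2 Jak3-202 held 84.7%, Jak3-205 14.7%, Jak3-204 0.58% and Jak3-203 was listed at 0. The posterior standard deviations in replicate 1, 87.1 reads for Jak3-203 and 81.7 for Jak3-202 beside 232 and 187 assigned, leave their order there unsettled. By the posterior means of replicate 2, Jak3-202 held 72.7% and Jak3-203 9.90%. Jak3-202 and Jak3-203 have the same coding bases and start 1255 bases apart. Coding Jak3 was 5.91 TPM in replicate 1 and 6.83 TPM in replicate 2, so it was the single gene of the 9 whose coding TPM was not lower in replicate 2. Jak3 (chr8:71676296-71690575, plus strand) overlaps Insl3 on the same strand over 1362 bases, and Insl3 had 50 and 22 counts.

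Stat2 shows how small a difference the division can hang on. Its 2 deposited transcripts differ by 3 coding bases, CAG, given in capitals within chr10:128283134-128283256 of GRCm38, plus strand.
Stat2-202: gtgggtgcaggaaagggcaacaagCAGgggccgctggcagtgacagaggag
Stat2-201: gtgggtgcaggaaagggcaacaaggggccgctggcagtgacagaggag
Stat2-201 held 100% in replicate 1 and 95.9% in replicate 2. The posterior means left 1.54% on Stat2-202 in replicate 1 and 47.9% in replicate 2. Only reads across these 3 bases separate the forms, and with 89 counts on the gene the share was not determined in replicate 2.

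The receptors that feed the kinases were followed in 4 lists, whose differences from one another were not tested. Of 9 genes listed as the gamma chain family, with the IL-13 receptor chain Il13ra1 among them, most act through Jak1 and Jak3. All 9 were tested, 1 was called higher and 5 lower, with a median log2 ratio of -0.94. Il2rg, the common gamma chain, had the highest mean level, 511 TPM in replicate 1 and 40.8 TPM in replicate 2, and was called lower at -0.94 (-1.09 to -0.78). Il4ra, the IL-4 receptor chain that leads to Stat6, was the one called higher, at 0.78 (0.59 to 0.96), with 28.96 and 9.21 TPM. With the GC trend removed Il2rg was at -0.32 and Il4ra at -0.54, and neither was called. The list then had 0 called higher and 4 lower, where 27.7% and 24.6% of all tested genes were. On the total count Il4ra was at -0.49. There 0 genes of the list were called higher and 7 lower, where 14.6% and 58.5% of all tested genes were. Il15ra, which presents IL-15, went from 484 counts to 0. With a floor of 3 counts in place of 0 it was 9.30-fold lower, at -3.22. The upper end of its interval was -2.91. With the GC trend removed it was at -2.49.

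Of 9 receptor genes of the gp130 and IL-12 families, which lead mainly to Stat3 and Stat4, 7 were tested, 1 was called higher and 4 lower, with a median of -2.05. Il11ra1, the IL-11 receptor chain, had both the highest mean TPM and the highest ratio, with 51.5 and 220 TPM and 4.36 (4.18 to 4.54). Its transcripts average 583 bases. By counts, 467 and 554, it was not the highest of its list in either library. Osmr, the oncostatin M receptor, had the lowest ratio, with 18.0 and 0.16 TPM and -4.11 (-5.73 to -2.88). With the GC trend removed these were 4.40 and -3.04, and 2 genes of the list were called higher and 4 lower. Among 7 interferon and IL-10 receptor genes, 2 were called higher and 0 lower, with a median of 0.23. Ifngr1 had the highest mean level, 185 and 30.8 TPM, at 0.08 (-0.08 to 0.23). Ifngr2 had 63.5 and 30.3 TPM and was called higher at 2.10 (1.96 to 2.24). Ifnar1 was the second, with 65.5 and 34.0 TPM, at 1.17 (1.04 to 1.30). On the total count this list had 1 called higher and 4 lower, Ifngr1 at -1.18 among the latter, and Ifnar1 was at -0.090. With the GC trend removed 3 were called higher, Ifngr1 at 0.81 among them, and 0 lower.

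The list of beta common and homodimeric receptors, most of which act through Jak2, had 10 of 12 genes tested, 2 called higher and 6 lower, with a median of -2.42. Il3ra, the IL-3 receptor chain, went from 8 counts and 0.35 TPM to 629 counts and 85.1 TPM, at 10.41 (9.43 to 11.63), and had the highest mean level of its list. Its transcript has 65.9% GC. Csf2ra, the GM-CSF receptor chain, had 13.9 and 0.30 TPM from 441 and 3 counts and was called lower at -3.08 (-5.37 to -1.53). The other gene called higher was Epor, the erythropoietin receptor, named here after its value was seen, with 44 and 29 counts at 3.52 (2.79 to 4.22). With the GC trend removed Epor was at 0.86 and no longer called, Il3ra was at 5.61 and Csf2ra at -6.42. The list then had 1 called higher and 5 lower.

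All 18 negative regulators (SOCS, PIAS and phosphatase genes, with Cish, Sh2b3 and Usp18) were tested, 4 called higher and 5 lower, with a median of -0.10. Ptpn6, which encodes the phosphatase SHP-1, had the highest mean level, with 272 and 325 TPM, and was called higher at 2.41 (2.35 to 2.47). Socs1, an inhibitor of Janus kinases, had the highest ratio, 3.20 (2.29 to 4.06), from 34 and 18 counts. Socs4 had the lowest, -3.64 (-4.35 to -3.01), from 4311 and 20 counts. With the GC trend removed Socs1 was at 0.93 and no longer called, and Ptpn6 at 1.501 and Socs4 at -1.91 were still called. Socs7 at 0.48 and Pias4 at 0.25, named here after their values were seen, lost their calls as well. Other genes of the list gained a call, so it again had 4 called higher and 5 lower.

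Of 12 known STAT target genes and partners, 6 were called higher and 3 lower, with a median of 0.86. Mcl1, a survival gene of the BCL2 family, had the highest mean level, with 447 and 111 TPM, at 0.42 (0.36 to 0.49). Bcl2l1, which encodes the survival protein BCL-XL, had the highest ratio, with 26.4 and 40.3 TPM and 4.12 (3.95 to 4.30). Ccnd2, a D-type cyclin, had the lowest, with 58.4 and 1.65 TPM and -2.72 (-3.13 to -2.33). With the GC trend removed Mcl1 was at 1.04 and called higher, Bcl2l1 at 2.75 and Ccnd2 at -1.87. The list then had 6 called higher and 4 lower. On the total count 3 of these genes were called higher and 5 lower, with Mcl1 at -0.84 among the latter. Counts and medians of all these lists describe the 2 libraries and are read beside 28.0% higher, 32.6% lower and a median of -0.27 over all tested genes. For list counts on the total count, the shares of all tested genes were 14.6% higher and 58.5% lower. With the GC trend removed they were 27.7% and 24.6%.

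**Figure D5:**
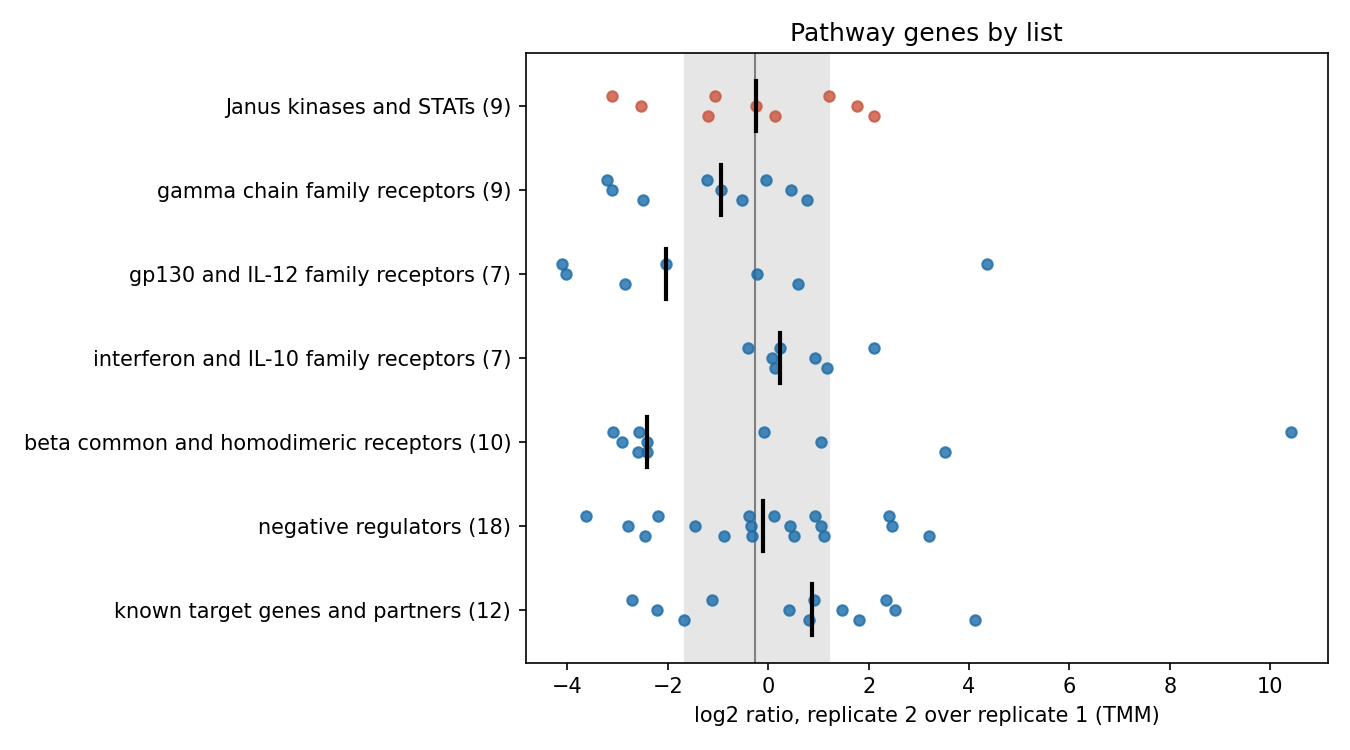
TMM-scaled log2 ratio of replicate 2 over replicate 1 for the 9 genes (red) and each tested gene of 6 pathway lists (blue), with the number tested in brackets, list medians as black bars, and the median (grey line) and middle 50% (grey zone) of all tested genes. List medians run from -2.42 for the beta common and homodimeric receptors to 0.86 for the target genes and partners.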

How the data were processed

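Per the text deposited with the files, reads were aligned to mouse genome mm10 with GENCODE M4. The sources used here do not name the aligner, the quantifier or its use of strand. For each library, per the file headers, the authors deposited expected counts, TPM, FPKM, and the percent of a gene's TPM per transcript, with posterior means and bounds. Lengths and effective lengths, an other measure in bases, are also deposited. FPKM served only for shares within a family. Rows without an Ensembl identifier (26345 of 69691) stayed out. They held 1.09e-05% and 2.10e-04% of the counts of replicates 1 and 2.

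Rounded expected counts were scaled with TMM (edgeR 4.0.16, R 4.3.3). Genes with a mean of at least 1 TPM and at least 50 counts over both libraries were tested. Ratios have exact 95% intervals (Clopper-Pearson, given the sum of both counts), and 0 counts were replaced by a floor of 3 per library. Calls need the whole interval beyond 1.5-fold. The rule was tested on simulated data. The intervals treat reads as independent molecules, which PCR copies are not. GC content and length are means over a gene's transcripts weighted by TPM, and trends were removed by lowess with a fraction of 0.3.

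Transcript structures and positions come from GENCODE M21 (GRCm38), in which all 50 transcripts have their deposited length. Promoter windows come from RefSeq (GRCm38.p6) and matched all 9 genes. The 9 genes and the pathway lists were chosen with earlier results of these data known. All 9 genes are named, and of each pathway list the gene with the highest mean TPM and the called genes with the highest and lowest ratio. Alternatives were DESeq2 1.42.0 size factors, total count, other filters, folds and interval levels, removal of the GC or length trend, TPM ratios with pseudocounts of 1 and 0.1, each library alone, and other measures of the leading transcript. The posterior measure of the leading transcript, the GC-corrected ratios between 2 genes, the search for shared windows in every leading transcript and the requirement of 1 direction under all scalings were chosen after seeing the data. Python 3.11.15 with pandas 2.3.3, scipy 1.17.1, statsmodels 0.14.6 and matplotlib 3.10.9 did the rest.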

Additional observations from a re-analysis of the deposited data

How the results depend on the processing

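Of the 9 genes, 7 were called under TMM, 3 higher and 4 lower, where 7552 of 12467 tested genes were called. At 2-fold, 4 were called and 2 of them lower, where 5995 of 12467 were called. With the total count 1 was called higher, where 14.6% of tested genes were. With the GC trend removed 1 was, where 27.7% were. When the same call was required under TMM, DESeq2 size factors and total count, and a TPM on the same side, 4 genes were called lower. As all 9 genes had a lower TPM, this rule could leave only 0 higher. Its share over all tested genes was not computed. No filter, a 99% interval and a 1-fold threshold left 3 higher, and 7, 7 and 8 called in either direction. Over all genes, 8952 of 20488, 6908 of 12467 and 10120 of 12467 were called in either direction. Of the called genes, 3 turned sign with the GC trend removed: Jak3 to -0.87, Stat4 to 0.27 and Stat5a to -0.018. Of these only Jak3 was called in the other direction. The intervals of Stat4 (-0.07 to 0.60) and Stat5a (-0.34 to 0.29) spanned 0. Stat5a also turned sign with the total count, to -0.044, and was not called. Stat5b, not called at 0.14, turned to -0.54 with the GC trend removed, to -1.12 with the total count, where it was called lower, and to -2.04 by TPM (pseudocount 1). Stat6, not called at -0.24, turned to 0.49 with the length trend removed. Of the called pathway genes named above, Il4ra turned to -0.49 with the total count and -0.54 with the GC trend removed. With the total count Ifnar1 turned to -0.090 and Socs7 to -0.15. Il4ra, Ifnar1 and Socs7 were not called in the other direction. Mcl1, not called at 0.42, turned to -0.84 with the total count, and Ifngr1, not called at 0.08, to -1.18. Both were called lower there. As log2 TPM ratios with a pseudocount of 1, Jak3 (-0.31), Stat3 (-1.26) and Stat5a (-1.09) turned, and with 0.1 they were at -0.34, -1.28 and -1.23. TPM differs from a TMM ratio in its scale and in using the length of each library's own transcripts; the cause of the other turns was not tested. The leading transcript was the same for 4 genes by expected count and by the posterior percent and for 5 among coding transcripts. Of the genes with a mean of at least 10 TPM, which leaves out Jak3 and Stat5a, 59.4%, 52.9% and 69.4% had the same one. Depth limits replicate 2, where 49 to 858 counts per gene decide transcript shares. No paired analysis was possible because there is 1 group of 2 libraries.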
